A study of Oryctolagus cuniculus with 49 samples.

Results

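The genes described here encode the factors that start, extend and regulate protein synthesis and the enzymes that load amino acids onto transfer RNA. They were chosen by symbol alone, as initiation factors (EIF1 to EIF6 families), elongation factors (EEF1 and EEF2 families), cytoplasmic poly(A)-binding proteins (PABPC) and aminoacyl-tRNA synthetases. The rule found 90 genes, from 118 transcripts, among the 12948 gene symbols of the iris and ciliary body table. Of these 90 genes, 88 stood at 1 FPKM or more in all 26 libraries, and EEF2KMT and EIF5A2 fell below it in at least 1. EEF2, EEF1A2, EEF1D, EIF3C, EIF3G and EIF4A3 are among the related genes not analysed here.

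RNA was sequenced from the iris and ciliary body of New Zealand white rabbits, in which the natural lens had been removed and an intraocular lens put in its place, and from unoperated eyes. Juvenile groups were operated 5-week eyes (3 libraries), operated 6.5-week eyes (3) and unoperated 5-week eyes (7), and the adult groups were operated (6) and unoperated (7) eyes at 6 months. Each library carries a different animal number, so the p-values measure the spread between animals. How long after surgery the eyes were taken is not stated in the labels, and with no unoperated 6.5-week group, surgery and growth cannot be told apart in the 6.5-week eyes. The series asks how the front of the eye responds to lens surgery at different ages.

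Cap-dependent translation begins when eIF4E, the scaffold eIF4G and the RNA helicase eIF4A assemble on the 5′ cap, a step that the 4E-binding proteins block when they are not phosphorylated by mTOR. eIF2 brings the initiator tRNA, eIF3 holds the small ribosomal subunit, and poly(A)-binding protein ties the tail of the message to the cap complex. Elongation factors then carry each charged tRNA to the ribosome, and kinases acting on eIF2 slow the whole process under stress.

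Levels are in FPKM, which scales fragments to transcript length and to the library, so values of different genes can be set side by side. EEF1A1, which delivers aminoacyl-tRNA to the ribosome, was by far the most abundant gene of the set, with a mean of 5775 FPKM, and it took 49 to 54.2% of the summed FPKM of all 90 genes in each library. At the other end stood EEF2KMT, a methyltransferase acting on elongation factor 2, with a mean of 1.66 FPKM. The role medians of these mean levels ran from 7 FPKM for the 13 mitochondrial synthetases to 276 FPKM for the 5 elongation genes. Between them lay 26.2 FPKM for the 18 cytosolic synthetases and 81.8 FPKM for the 11 eIF3 subunits. The 10 genes grouped as cap-binding and helicase factors had a median of 84.2 FPKM. The 90 genes varied little within groups, with a median within-group SD of 0.14 on the log2 scale, against 0.21 over all 12948 symbols.

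Changes were tested with limma on log2(FPKM + 0.5) over all 12948 symbols, and a gene is said to have risen or fallen when its Benjamini-Hochberg adjusted p was under 0.05. All fold changes refer to values with 0.5 added, so those of scarce genes are understated. In whole tissue, fewer cells of a type and less RNA per cell cannot be told apart. Marker genes of several cell types moved with surgery. The summed FPKM of 10 macrophage markers, of 12 listed, was 326 to 791 in operated and 110 to 290 in unoperated eyes at 6 months, and 369 to 886 in operated juvenile and 85.5 to 195 in unoperated 5-week eyes. Markers of dividing cells, 10 of 10 measured, summed to 71.0 to 155 in operated and 6.16 to 9.78 in unoperated eyes at 6 months, and to 48.9 to 113 in operated juvenile and 25.3 to 47.7 in unoperated 5-week eyes. The pigment, muscle and epithelial markers of the tissue itself, 13 of 15 measured, were present in every library and summed to 2606 to 3776 in operated and 4451 to 5827 in unoperated eyes at 6 months, and to 2666 to 3628 in operated juvenile and 4935 to 7285 in unoperated 5-week eyes. Of these 33 measured markers, MKI67 and AURKA of the dividing-cell list were listed at 0 in some libraries. The part of these shifts in the results below was not tested.

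After surgery at 6 months, 17 of the 90 genes rose and 15 fell. Over all symbols 16% rose and 30.1% fell. With the values as deposited, the share of translation genes that rose, 18.9%, thus lay near the background, while the share that fell, 16.7%, was smaller. The median log2 fold change of the 90 genes was -0.004, against -0.11 for all symbols. In juvenile eyes 17 genes rose and 9 fell (18.9% and 10.0%), against a background of 16.5% and 20.8%, with a median of 0.03 for the 90 genes and -0.06 for all symbols. The split between rises and falls depended on how libraries were scaled, and operated libraries carried more FPKM in the table (476369 to 504202 in operated and 431241 to 456586 in unoperated eyes at 6 months). Median-ratio scaling gave 27 rises and 8 falls at 6 months (all symbols 21.5% and 20.2%) and 23 and 6 in juveniles (18.3% and 18%). Upper-quartile scaling gave 23 and 11 at 6 months (18.7% and 25%) and 18 and 6 in juveniles (17.4% and 19.6%). When all libraries were set to an equal sum, 9 rose and 44 fell at 6 months (11.1% and 47.3%), and 6 rose and 24 fell in juveniles (11.9% and 36.1%). At 6 months the share of the 90 genes that rose thus lay above the background with median-ratio and upper-quartile scaling. With equal sums the share that fell at 6 months was no longer smaller than the background. Equal sums moved the median of all symbols to -0.24 at 6 months and to -0.18 in juveniles. Relative to that median, the 90 genes lay 0.10 higher at 6 months and 0.09 higher in juveniles as deposited, and 0.09 and 0.09 higher with equal sums. No called gene of the set changed sign under any of the 3 scalings. At 6 months 9 of the 17 rises and 8 of the 15 falls passed the test under all 3 scalings and without any 1 library, and in juveniles 6 of the 17 rises and 5 of the 9 falls did.

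**Figure D1:**
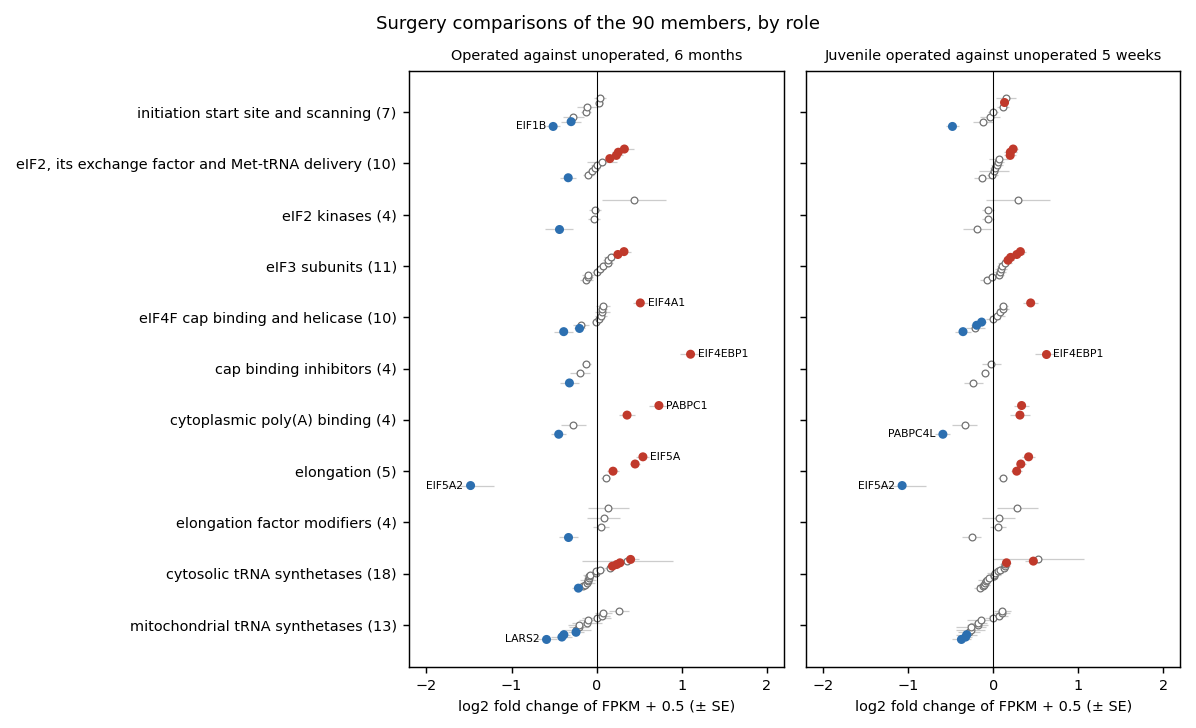
Log2 fold change (x axis, FPKM + 0.5) with its SE for each of the 90 genes, in rows by role with the number of genes in brackets. Red points rose and blue points fell at an adjusted p under 0.05, open points did not pass, and called genes beyond 0.5 in either direction are named. The left panel compares operated with unoperated eyes at 6 months (17 rises, 15 falls) and the right panel operated juvenile with unoperated 5-week eyes (17 rises, 9 falls).

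In the juvenile comparison the medians of lens markers also differed between groups, while the ranges overlapped, and the difference was not tested. The summed FPKM of 5 lens markers, of 15 listed, had medians of 574 in operated 5-week, 1685 in operated 6.5-week and 3268 in unoperated 5-week eyes. The ranges were 478 to 6970, 1039 to 3409 and 663 to 37656 FPKM in the same order. The lens crystallin CRYAA exceeded 1000 FPKM in 1 of 3 operated 5-week, 0 of 3 operated 6.5-week and 4 of 7 unoperated 5-week libraries. Without the 8 such libraries of the series, 6 genes rose and 3 fell in juveniles (all symbols 9.91% and 10.5%), with 3 unoperated 5-week libraries left. The juvenile rises that still passed were EEF1B2, EIF3E, EIF4EBP1, EIF5A, PABPC4 and VARS, and the falls were EIF1B, IARS2 and PABPC4L. The other 17 juvenile calls were lost, namely the rises of EIF4A1, PABPC1, KARS, EEF1G, EIF1, EIF2A, EIF2S1, EIF2S2, EIF3D, EIF3F and EIF3H and the falls of EIF5A2, EIF4E3, EIF4G2, EIF4G3, LARS2 and MARS2. Under the same omission 12 genes rose and 14 fell at 6 months (all symbols 14.4% and 25.7%), and the 6-month calls of EEF1G, EIF2A, EIF2S1, EIF2S2, EIF3E, EEF1E1, EIF2AK4 and EIF4EBP3 were lost. With the lens and photoreceptor sums as covariates, 70 of 81 calls over all comparisons still passed. The photoreceptor sum, from 2 of 11 markers, was 2.64 to 376 in operated and 2.71 to 181 in unoperated eyes at 6 months, and 2.56 to 332 in operated juvenile and 4.81 to 50.8 in unoperated 5-week eyes. Some 5-week libraries, 1 operated and 2 unoperated, carry sample and animal numbers that come after those of all 6.5-week and 6-month eyes. Without them 12 genes rose and 7 fell in juveniles, and the share of all symbols was not counted. A comparison within those 3 libraries was not made, as they hold only 1 operated eye.

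At 6 months, operated replicates 4 and 6 stood apart from the other 4 operated libraries. Both were above all of the other 4 in 13 of the 90 genes and below all of them in 29. The same was not counted over all symbols, so these numbers do not show a trait of the 90 genes. EIF5, which triggers GTP hydrolysis by eIF2 at the start codon, had 67.6 and 61.9 FPKM in them, against 96.7 to 121 FPKM in the other 4. Their macrophage marker sums were 791 and 547 FPKM, against 326 to 537 FPKM in the other 4, and their photoreceptor sums were 2.76 and 2.64 FPKM, against 4.06 to 376 FPKM. The dividing-cell sums lay on opposite sides, at 154.9 and 71.0 FPKM, against 81.75 to 125.4 FPKM. Lens sums of 1259 and 1366 FPKM lay inside the range of the other 4, 717 to 6725 FPKM. The iris and ciliary body sums were 2831 and 3776 FPKM, against 2606 to 3114 FPKM, so only replicate 6 lay outside. The part of these differences in the results was not tested. Without both libraries, an omission chosen after seeing the data, 18 genes rose and 11 fell at 6 months (all symbols 14.8% and 23.1%). Of the 17 rises 16 still passed, all but EIF2B2. Of the 15 falls only 7 still passed, namely EIF1B, EIF4EBP3, EIF5A2, IARS2, LARS2, PABPC4L and RARS2, and the calls of EIF4A2, EIF5, EIF2B3, EIF2AK4, EIF4G3, EEF1E1, DARS and TARS2 were lost. The rises of EEF1A1 and MARS and the falls of EIF4E3, EIF4EBP2, EIF4ENIF1 and PABPC1L2B passed at 6 months under this omission and not with all libraries.

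The largest rise at both ages was in EIF4EBP1, the 4E-binding protein that keeps eIF4E from the scaffold eIF4G when mTOR is inactive. At 6 months its lowest, median and highest levels were 16.0, 20.9 and 27.2 FPKM in operated eyes, against 6.56, 9.69 and 10.9 FPKM in unoperated eyes. No operated library overlapped with an unoperated one, and the log2 fold change was 1.10 ± 0.13 (SE), or 2.15-fold, with a limma adjusted p of 2.69e-07. In juveniles EIF4EBP1 stood at 15.6, 17.7 and 25.3 FPKM in operated 5-week eyes, at 18.7, 22 and 23.7 FPKM in operated 6.5-week eyes, and at 10.6, 13.4 and 15.4 FPKM (lowest, median, highest) in unoperated 5-week eyes. These groups did not overlap either, and the log2 fold change was 0.62 ± 0.13 (limma adjusted p = 4.95e-04).

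The other 4E-binding proteins did not rise. EIF4EBP2, the most abundant of the family, had 94.1, 108 and 115 FPKM (lowest, median, highest) in operated and 111, 114 and 124 FPKM in unoperated eyes at 6 months, ranges that overlapped, with a log2 fold change of -0.12 ± 0.05 (limma adjusted p = 0.0603). In juveniles its log2 fold change was -0.10 ± 0.05 (limma adjusted p = 0.158). EIF4EBP3 fell at 6 months, to 9.09, 11.2 and 12.8 FPKM in operated eyes, against 11.6, 14.3 and 18.3 FPKM in unoperated eyes, by 0.32 ± 0.11 on the log2 scale (limma adjusted p = 0.0211). These ranges overlapped, and the call was lost with median-ratio scaling and without operated replicate 1 or unoperated replicate 6 (highest limma adjusted p = 0.0601). EIF4ENIF1, which shuttles eIF4E into the nucleus and is grouped here with the inhibitors, had log2 fold changes of -0.20 ± 0.11 at 6 months and -0.23 ± 0.11 in juveniles, and passed the test at neither age.

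Among the 10 genes grouped as cap-binding and helicase factors, EIF4A1 rose and EIF4A2 fell at 6 months, the fall of EIF4A2 resting on 2 libraries. EIF4A1, the eIF4A form typical of growing cells, had 113, 157 and 188 FPKM (lowest, median, highest) in operated and 103, 108 and 110 FPKM in unoperated eyes. The groups did not overlap, and the log2 fold change was 0.51 ± 0.09 (limma adjusted p = 4.16e-05). In juveniles EIF4A1 stood at 138, 153 and 167 FPKM in operated 5-week eyes, at 144, 154 and 178 FPKM in operated 6.5-week eyes, and at 102, 111 and 129 FPKM in unoperated 5-week eyes, again without overlap, with a log2 fold change of 0.44 ± 0.09 (limma adjusted p = 2.89e-04), a call lost without the high-CRYAA libraries. EIF4A2, its close paralog, was the more abundant of the pair and fell at 6 months, with 201, 307 and 342 FPKM in operated and 331, 364 and 378 FPKM in unoperated eyes. Its ranges overlapped, and it fell by 0.39 ± 0.11 on the log2 scale (limma adjusted p = 0.00678). Operated replicates 4 and 6 had 201 and 217 FPKM of EIF4A2, against 305 to 342 FPKM in the other 4 operated libraries, and without both the log2 fold change was -0.19 ± 0.09 and the call was lost (limma adjusted p = 0.115). In juveniles its log2 fold change was -0.21 ± 0.11, which did not pass (limma adjusted p = 0.145).

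EIF4A1 and EIF4A2 are similar enough that reads may be split between them, and several transcripts of each were summed. The most abundant EIF4A1 transcript averaged 106 ± 39.8 FPKM in operated and 68.2 ± 10.7 FPKM in unoperated eyes at 6 months (SD, n = 6 and 7). The most abundant EIF4A2 transcript averaged 234 ± 60.5 FPKM in operated and 320 ± 16.2 FPKM in unoperated eyes, so the leading transcript of each gene moved as the sum did. EIF4G3, one of the scaffolds, fell by 0.20 ± 0.07 at 6 months and by 0.19 ± 0.07 in juveniles on the log2 scale (limma adjusted p = 0.0205 and 0.0311), and both calls were lost under both the median-ratio and the upper-quartile scaling. They were also lost without operated replicate 4 or 5 at 6 months (highest limma adjusted p = 0.0617), and in juveniles without operated 5-week replicate 1 or 3, operated 6.5-week replicate 3 or unoperated 5-week replicate 1 (highest limma adjusted p = 0.13). EIF4E3, a cap-binding protein related to eIF4E, fell in juveniles by 0.35 ± 0.10 (limma adjusted p = 0.00515), a call that was kept in all 3 scalings and lost with the operated 5-week eyes taken alone.

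**Figure D2:**
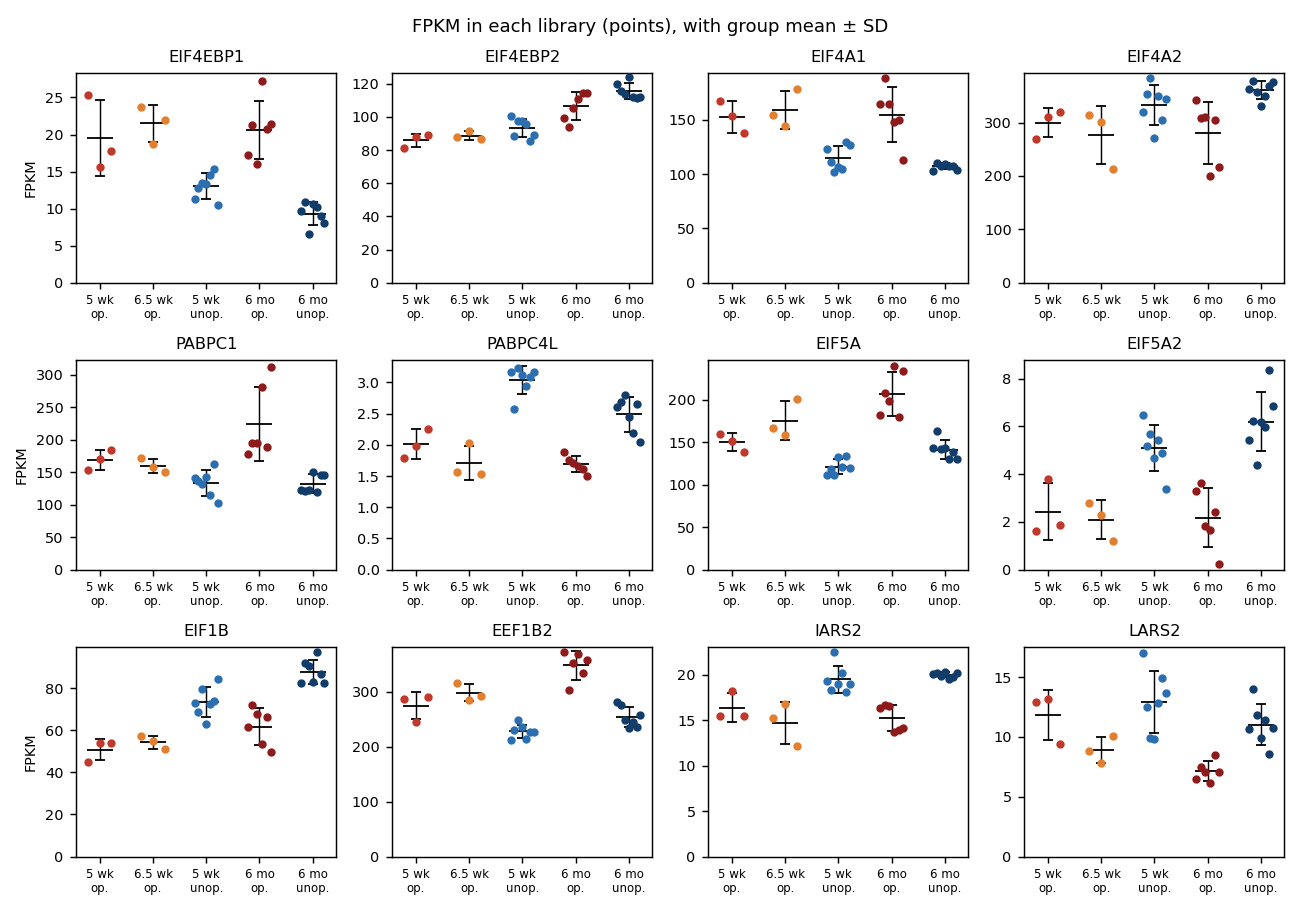
FPKM (y axis, from 0) of 12 named genes in each library, 1 point per library, with the mean and SD of each group. Operated groups (op.) stand left of the unoperated group (unop.) they are set against, so that EIF4EBP1, EIF4A1 and EIF5A can be seen higher, and EIF5A2, EIF1B, IARS2 and PABPC4L lower, in operated eyes at both ages.

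PABPC1, the main cytoplasmic poly(A)-binding protein, rose at 6 months, with 178, 195 and 312 FPKM (lowest, median, highest) in operated and 120, 122 and 151 FPKM in unoperated eyes. The groups did not overlap, and the log2 fold change was 0.73 ± 0.12, or 1.66-fold (limma adjusted p = 2.63e-05). Operated replicates 4 and 6 had 281 and 312 FPKM, against 178 to 195 FPKM in the other 4, and without both the log2 fold change was 0.51 ± 0.10, or 1.43-fold (limma adjusted p = 2.28e-04). In juveniles PABPC1 had 154, 170 and 184 FPKM in operated 5-week eyes and 151, 157 and 171 FPKM in operated 6.5-week eyes, against 103, 136 and 163 FPKM in unoperated 5-week eyes. These ranges overlapped, and the log2 fold change of 0.31 ± 0.12 passed narrowly (limma adjusted p = 0.0406). It no longer passed with equal sums, without the high-CRYAA libraries, or when any of 7 libraries was left out, namely operated 5-week replicates 2 and 3, operated 6.5-week replicates 1 and 2, and unoperated 5-week replicates 3, 5 and 7, with limma adjusted p between 0.0546 and 0.0959 and log2 fold changes of 0.26 to 0.32.

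PABPC4, a related poly(A)-binding protein of lower level, rose at both ages, by 0.36 ± 0.09 at 6 months and 0.33 ± 0.09 in juveniles on the log2 scale (limma adjusted p = 0.00285 and 0.0058), and the juvenile call was lost with equal sums. PABPC4L, a little-studied relative, was scarce and fell. It had 1.5, 1.69 and 1.89 FPKM in operated and 2.05, 2.60 and 2.80 FPKM in unoperated eyes at 6 months, without overlap (log2 fold change -0.45 ± 0.09, limma adjusted p = 2.04e-04). In juveniles it had 1.79, 1.98 and 2.26 FPKM in operated 5-week eyes, 1.54, 1.57 and 2.03 FPKM in operated 6.5-week eyes, and 2.57, 3.12 and 3.23 FPKM in unoperated 5-week eyes, again without overlap (log2 fold change -0.59 ± 0.09, limma adjusted p = 8.84e-06).

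Of the 7 genes grouped here under start site and scanning, EIF1B fell at both ages. EIF1 and EIF1B encode near-identical factors that keep the scanning ribosome open until it meets the start codon. EIF1B had 49.5, 63.9 and 72.0 FPKM in operated and 82.3, 86.8 and 97.0 FPKM in unoperated eyes at 6 months, without overlap, and fell by 0.51 ± 0.08 (limma adjusted p = 1.49e-05). In juveniles it fell by 0.48 ± 0.08 (limma adjusted p = 4.17e-05), to 45, 53.8 and 53.8 FPKM in operated 5-week eyes and 50.9, 54.8 and 57.2 FPKM in operated 6.5-week eyes, against 62.9, 72.8 and 84.3 FPKM in unoperated 5-week eyes. EIF1, the more abundant form, had 293, 300.1 and 325 FPKM in operated and 285, 298 and 311 FPKM in unoperated eyes at 6 months, and its log2 fold change was 0.03 ± 0.05 (limma adjusted p = 0.622). In juveniles EIF1 rose by 0.13 ± 0.05 (limma adjusted p = 0.0219), a call lost with equal sums, without the high-CRYAA libraries, and without operated 5-week replicate 1 or operated 6.5-week replicate 3 (highest limma adjusted p = 0.0825). Because the products are alike, reads may be shared between the pair.

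The eIF2 group, which holds the factor that delivers the initiator tRNA and the eIF2B complex that recharges it, had 4 rises and 1 fall among 10 genes at 6 months (40% and 10.0%, against 16% and 30.1% of all symbols) and 3 rises and 0 falls in juveniles (30% and 0%, against 16.5% and 20.8%). EIF2S1 and EIF2S2, the alpha and beta subunits of eIF2, and EIF2A, a factor linked to alternative initiation, rose at both ages by 0.15 to 0.25 on the log2 scale, and all of these calls were lost with equal sums. The 6-month EIF2S2 call was also lost without operated replicate 4 (limma adjusted p = 0.0539). In juveniles that of EIF2A was lost without any of 5 libraries and that of EIF2S1 without any of 8 (highest limma adjusted p = 0.0826 and 0.148). EIF2B2, a regulatory subunit of eIF2B, rose at 6 months by 0.32 ± 0.11 (limma adjusted p = 0.0199), a call lost without operated replicate 4 or 6 (highest limma adjusted p = 0.0719), and without both its log2 fold change was 0.10 ± 0.08 (limma adjusted p = 0.329). EIF2B3, a catalytic subunit of eIF2B, fell at 6 months, to a mean of 11.1 ± 2.10 FPKM in operated eyes, against 14 ± 0.87 FPKM in unoperated eyes (SD, n = 6 and 7; limma adjusted p = 0.00502), a call lost without operated replicates 4 and 6 (limma adjusted p = 0.0854). That fall lay in the less abundant of its 2 transcripts, at 3.21 ± 1.82 FPKM in operated and 5.96 ± 2.01 FPKM in unoperated eyes. The more abundant transcript had 7.93 ± 1.21 FPKM in operated and 8.05 ± 2.03 FPKM in unoperated eyes, and taken alone gave a log2 fold change of 0.00 (limma adjusted p = 0.995).

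Among the 11 eIF3 subunits, 2 rose at 6 months and 4 in juveniles, and 0 fell at either age. The shares that rose were 18.2% and 36.4%, against 16% and 16.5% of all symbols. EIF3E had 188, 199 and 211 FPKM in operated and 150.3, 175 and 179 FPKM in unoperated eyes at 6 months, without overlap (log2 fold change 0.25 ± 0.07, limma adjusted p = 0.00447), and in juveniles it rose by 0.32 ± 0.07 (limma adjusted p = 6.08e-04). The 6-month call of EIF3E was lost with equal sums. EIF3I rose at 6 months by 0.32 ± 0.08 (limma adjusted p = 0.00191), with 85.4, 88.9 and 123.4 FPKM in operated and 69.7, 80.5 and 83.5 FPKM in unoperated eyes, ranges that did not overlap, and without operated replicates 4 and 6 its log2 fold change was 0.18 ± 0.06 (limma adjusted p = 0.027). EIF3D, EIF3F and EIF3H rose in juveniles by 0.17 to 0.28 on the log2 scale, and these calls were lost with equal sums and without the high-CRYAA libraries. Those of EIF3D and EIF3H were also lost without any of 2 and of 9 libraries (highest limma adjusted p = 0.063 and 0.155), the 2 being operated 5-week replicate 1 and operated 6.5-week replicate 3.

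Of the 4 kinases that phosphorylate eIF2, 1 fell at 6 months (25%, against 30.1% of all symbols). In juveniles 0 passed the test, while 16.5% of all symbols rose and 20.8% fell. EIF2AK4, the amino acid sensor GCN2, had 2.81, 5.75 and 7.27 FPKM in operated and 5.48, 7.57 and 9.19 FPKM in unoperated eyes at 6 months and fell by 0.45 ± 0.16 (limma adjusted p = 0.0289), with overlapping ranges. The call was lost with median-ratio scaling and without operated replicate 3 or 6 or unoperated replicate 2 or 3 (highest limma adjusted p = 0.102). EIF2AK1, the heme-regulated kinase, had log2 fold changes of -0.02 ± 0.07 at 6 months and -0.06 ± 0.07 in juveniles. EIF2AK3, the endoplasmic reticulum kinase PERK, had -0.03 ± 0.07 and -0.06 ± 0.07 for the same comparisons. EIF2AK2, the double-stranded RNA sensor PKR, had 0.44 ± 0.38 at 6 months and 0.29 ± 0.38 in juveniles, with an SE about as large as the value.

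Of the 5 genes counted under elongation, 3 rose and 1 fell at each age, against 16% and 30.1% of all symbols at 6 months and 16.5% and 20.8% in juveniles. EIF5A, the hypusine-bearing factor that helps ribosomes past stalls, had 180, 203 and 240 FPKM in operated and 130.3, 142 and 163 FPKM in unoperated eyes at 6 months, without overlap (log2 fold change 0.54 ± 0.08, limma adjusted p = 3.64e-06). In juveniles EIF5A rose by 0.42 ± 0.08 (limma adjusted p = 1.23e-04), with 139, 152 and 160 FPKM in operated 5-week eyes, 158, 167 and 201 FPKM in operated 6.5-week eyes, and 112, 120.2 and 134 FPKM in unoperated 5-week eyes. Its paralog EIF5A2 showed the largest fall of the set. EIF5A2 had 0.25, 2.12 and 3.65 FPKM in operated and 4.37, 6.17 and 8.37 FPKM in unoperated eyes at 6 months, without overlap, a 2.79-fold lower level (log2 fold change -1.48 ± 0.28, limma adjusted p = 1.42e-04). Operated replicates 4 and 6 had 1.66 and 0.25 FPKM of EIF5A2, against 1.84 to 3.65 FPKM in the other operated libraries. Without both the log2 fold change was -1.04 ± 0.21 (limma adjusted p = 5.59e-04). In juveniles EIF5A2 had 1.60, 1.87 and 3.80 FPKM in operated 5-week eyes, 1.21, 2.27 and 2.81 FPKM in operated 6.5-week eyes, and 3.39, 5.19 and 6.47 FPKM in unoperated 5-week eyes, with 1 operated library inside the unoperated range (log2 fold change -1.07 ± 0.28, limma adjusted p = 0.00396). The juvenile call was lost without the high-CRYAA libraries.

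EEF1B2, which reloads EEF1A1 with GTP, rose at both ages. It had 303, 354 and 372 FPKM in operated and 235, 248 and 282 FPKM in unoperated eyes at 6 months, without overlap (log2 fold change 0.45 ± 0.06, limma adjusted p = 1.73e-06). In juveniles it had 246, 288 and 289.6 FPKM in operated 5-week eyes, 286, 293 and 315 FPKM in operated 6.5-week eyes, and 213, 227 and 248 FPKM in unoperated 5-week eyes, where 1 operated library lay inside the unoperated range (log2 fold change 0.33 ± 0.06, limma adjusted p = 1.41e-04). EEF1G, a structural subunit of the same complex, rose by 0.19 ± 0.07 at 6 months and 0.28 ± 0.07 in juveniles (limma adjusted p = 0.0211 and 0.00191), both lost with equal sums, and at 6 months also without operated replicate 1 or 2 (highest limma adjusted p = 0.0662). EEF1A1 itself had 5773, 6364 and 6773 FPKM in operated and 5280, 5904 and 6261 FPKM in unoperated eyes at 6 months, and its log2 fold changes of 0.11 ± 0.05 at 6 months and 0.11 ± 0.05 in juveniles did not pass (limma adjusted p = 0.0969 and 0.0954). Of the 4 elongation factor modifiers, EEF1E1, a small component of the synthetase complex, fell at 6 months by 0.33 ± 0.11 (limma adjusted p = 0.0169), a call lost with median-ratio scaling and without operated replicate 4 or 6 (highest limma adjusted p = 0.0562).

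The synthetases were counted by compartment, and the difference between compartments was not tested. Genes that serve both compartments, such as KARS, were counted as cytosolic only. Of the 18 cytosolic enzymes, 4 rose and 1 fell at 6 months (22.2% and 5.56%, against 16% and 30.1% of all symbols). In juveniles 2 rose and 0 fell (11.1% and 0%, against 16.5% and 20.8%). Of the 13 enzymes counted as mitochondrial, 0 rose at either age, 4 fell at 6 months and 3 in juveniles. Their medians were -0.21 and -0.18 on the log2 scale, against -0.05 and 0.02 for the enzymes counted as cytosolic. The share of mitochondrial enzymes that fell, 30.8% at 6 months and 23.1% in juveniles, lay near the share of all symbols that fell (30.1% and 20.8%).

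VARS, the cytosolic valyl-tRNA synthetase, rose at both ages. It had 12.1, 12.9 and 15 FPKM in operated and 8.44, 10.0 and 10.7 FPKM in unoperated eyes at 6 months, without overlap (log2 fold change 0.40 ± 0.09, limma adjusted p = 0.00131). In juveniles VARS had 11.4, 14.9 and 15.4 FPKM in operated 5-week eyes, 12, 12.1 and 17.1 FPKM in operated 6.5-week eyes, and 7.58, 9.83 and 11.1 FPKM in unoperated 5-week eyes, again without overlap (log2 fold change 0.47 ± 0.09, limma adjusted p = 3.12e-04). KARS, which makes both the cytosolic and the mitochondrial lysyl-tRNA synthetase, rose by 0.27 ± 0.05 at 6 months (limma adjusted p = 2.10e-04) and by 0.16 ± 0.05 in juveniles (limma adjusted p = 0.0232), a call lost in juveniles with equal sums and without operated 5-week replicate 3 (limma adjusted p = 0.0669). GARS and QARS, the glycyl and glutaminyl enzymes, rose at 6 months by 0.18 ± 0.05 and 0.23 ± 0.06 (limma adjusted p = 0.00492 and 0.00343), and both calls were lost with equal sums. DARS, the aspartyl enzyme, was the 1 cytosolic fall, by 0.22 ± 0.08 (limma adjusted p = 0.03), lost under the median-ratio and the upper-quartile scaling and without operated replicate 4, 5 or 6 or unoperated replicate 3 (highest limma adjusted p = 0.0975).

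IARS2, the mitochondrial isoleucyl enzyme and the most abundant of its class, fell at both ages. It had 13.7, 15.2 and 16.7 FPKM in operated and 19.5, 20.1 and 20.3 FPKM in unoperated eyes at 6 months, without overlap (log2 fold change -0.39 ± 0.07, limma adjusted p = 8.40e-05). In juveniles IARS2 fell by 0.32 ± 0.07 (limma adjusted p = 6.70e-04), and 1 operated library reached into the unoperated range. LARS2, the mitochondrial leucyl enzyme, had 6.14, 7.08 and 8.47 FPKM in operated and 8.54, 10.8 and 14 FPKM in unoperated eyes at 6 months, without overlap (log2 fold change -0.59 ± 0.12, limma adjusted p = 3.67e-04). RARS2 and TARS2, the arginyl and threonyl enzymes, also fell at 6 months, by 0.41 ± 0.12 and 0.24 ± 0.10 (limma adjusted p = 0.00853 and 0.0452). The TARS2 call was lost under the median-ratio and the upper-quartile scaling, and when any of 11 libraries was left out (highest limma adjusted p = 0.119). In juveniles LARS2 and MARS2 fell by 0.31 ± 0.12 and 0.37 ± 0.11 (limma adjusted p = 0.0482 and 0.0123). The juvenile LARS2 call was lost when any of 17 libraries was left out (highest limma adjusted p = 0.154), and that of MARS2 without operated 6.5-week replicate 3 (limma adjusted p = 0.0509).

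Both surgery comparisons take their group means from different libraries. They share the spread of each gene over all libraries, so their calls are not independent. Of the genes that rose, 13 were the same at both ages, which is 76.5% of the 17 in each list. Of those that fell, 6 were shared, which is 40% of the 15 at 6 months and 66.7% of the 9 in juveniles, and 0 genes were called in opposite directions. Over all symbols the shared rises were 74.1% of those at 6 months and 71.9% of those in juveniles, and the shared falls 55.1% and 79.7%, so the overlap of the rises lay near that of all symbols and the overlap of the falls was smaller. The difference between the 6-month and the juvenile surgery effect was tested directly, and 0 of the 90 genes passed in limma in either direction, against 0.734% of all symbols higher and 0.355% lower, while 2 of the 90 (2.22%) had an unadjusted p under 0.05, against 12.9% of all symbols. These were EIF4EBP1, with a difference of 0.48 ± 0.18 (limma adjusted p = 0.252), and PABPC1, with 0.42 ± 0.17 (limma adjusted p = 0.281). Operated 6.5-week and operated 5-week eyes differed in 0 of the 90 genes in limma, against 0.00772% of all symbols in each direction, and 4 of the 90 (4.44%) had an unadjusted p under 0.05, against 10.3% of all symbols. These 4 were EIF3B and EIF5B, higher at 6.5 weeks by 0.22 ± 0.08 and 0.25 ± 0.09, and EIF4E3 and LARS2, lower at 6.5 weeks by values of -0.31 ± 0.14 and -0.38 ± 0.18, with limma adjusted p between 0.352 and 0.463.

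Ratios of paralogs within a library do not depend on how libraries are scaled, apart from the 0.5 added before the logarithm. The pairs were chosen after the genes had been called, so the ratios are given as a description with no test. The log2 ratio of EIF4A1 to EIF4A2 was -0.85 ± 0.23 in operated and -1.75 ± 0.09 in unoperated eyes at 6 months (SD, n = 6 and 7). In juveniles it was -0.88 ± 0.35 in operated and -1.53 ± 0.24 in unoperated eyes, and the groups overlapped at neither age. EIF4EBP1 to EIF4EBP2 stood at -2.36 ± 0.25 in operated and -3.58 ± 0.23 in unoperated eyes at 6 months, and at -2.08 ± 0.30 in operated and -2.80 ± 0.22 in unoperated juvenile eyes, where the juvenile groups overlapped.

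The ratio of EIF1 to EIF1B was higher by 0.54 at 6 months and 0.61 in juveniles, and that of EIF5A to EIF5A2 by 2.03 and 1.49, with no overlap between groups in any of the 4. The ratio of PABPC1 to PABPC4 at 6 months was 2.77 ± 0.27 in operated and 2.40 ± 0.14 in unoperated eyes, and in juveniles 2.40 ± 0.16 in operated and 2.42 ± 0.34 in unoperated eyes, and these groups overlapped at both ages.

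**Figure D3:**
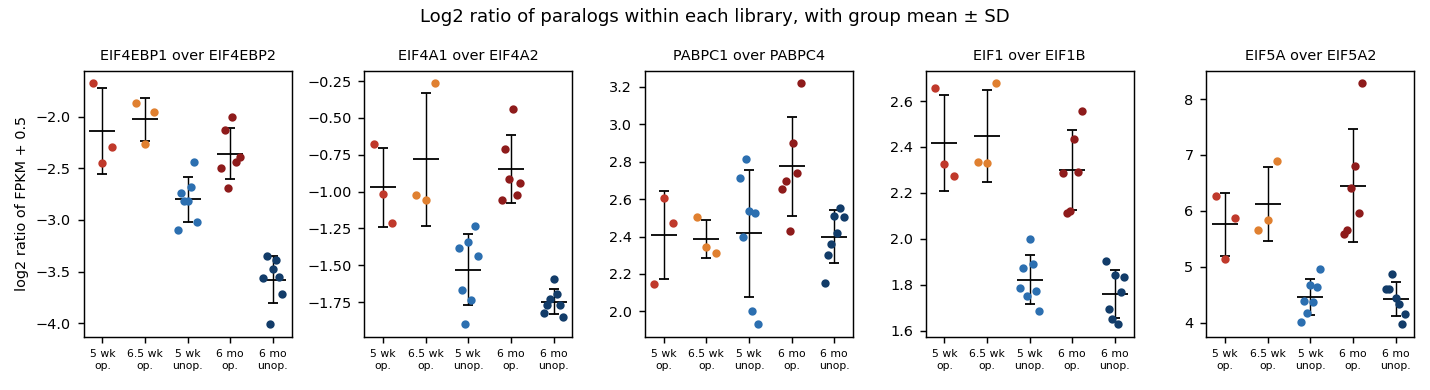
Log2 ratio of FPKM + 0.5 between the members of 5 paralog pairs (y axis, a separate scale in each panel) in each library, with the mean and SD of each group. The means of the operated groups (op.) lie above that of the unoperated group (unop.) they are set against in all pairs but PABPC1 over PABPC4, where juvenile means were 2.40 in operated and 2.42 in unoperated eyes.

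With age, fewer of the 90 genes differed. Between 6-month and 5-week unoperated eyes 8 rose and 4 fell, against a background of 11.4% and 9.46% of all symbols (8.89% and 4.44% of the 90). Between operated eyes at 6 months and operated juvenile eyes 8 rose and 3 fell, against 5.88% and 9.78% (8.89% and 3.33% of the 90). These comparisons share libraries with the surgery comparisons. Median-ratio scaling gave 6 rises and 5 falls in unoperated eyes (all symbols 9.28% and 10.8%) and 12 and 3 in operated eyes (8.89% and 8.27%). Upper-quartile scaling gave 6 and 9 in unoperated eyes (7.86% and 12.3%) and 5 and 4 in operated eyes (5.06% and 10.7%). Equal sums gave 4 and 10 in unoperated eyes (6.76% and 12.8%) and 3 and 11 in operated eyes (2.54% and 15.4%). Without the high-CRYAA libraries 1 gene rose and 0 fell in unoperated eyes. The shares of all symbols are not given for this omission or for the omissions that follow.

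The count of falls in unoperated eyes was 2 without 5-week replicate 1 or 7 or 6-month replicate 4. Rises in operated eyes numbered 4 without operated 5-week replicate 1 or 2, operated 6.5-week replicate 1 or operated 6-month replicate 6, and 5 without operated 6.5-week replicate 2 or operated 6-month replicate 4. Without operated 6-month replicates 4 and 6 together, rises in operated eyes numbered 5 and falls in unoperated eyes 7. Falls in operated eyes numbered 5 without operated 6.5-week replicate 3 and 6 without operated 6-month replicate 3.

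The 4E-binding proteins shifted with age in different directions. EIF4EBP2 was higher at 6 months, with 111, 114 and 124 FPKM (lowest, median, highest) in unoperated 6-month and 85.7, 95.5 and 100.3 FPKM in unoperated 5-week eyes, without overlap (log2 fold change 0.31 ± 0.05, limma adjusted p = 1.43e-04). The same held in operated eyes, with 94.1, 108 and 115 FPKM at 6 months and 81.5 to 91.6 FPKM over the 6 juvenile libraries (log2 fold change 0.28 ± 0.05, limma adjusted p = 0.00102). EIF4EBP1 was lower in unoperated eyes at 6 months, with a mean of 9.32 ± 1.58 FPKM at 6 months and 13.1 ± 1.70 FPKM at 5 weeks (SD, n = 7 each), a log2 fold change of -0.47 ± 0.12 (limma adjusted p = 0.00878) that was lost without the high-CRYAA libraries. In operated eyes EIF4EBP1 averaged 20.6 FPKM at 6 months and 20.5 FPKM in juveniles (log2 fold change 0.01 ± 0.13, limma adjusted p = 0.984). EIF4EBP3 was lower at 6 months in operated eyes, with means of 11.2 ± 1.30 FPKM at 6 months and 17.9 ± 2.97 FPKM in juveniles (SD, n = 6 each; log2 fold change -0.64 ± 0.12, limma adjusted p = 4.95e-04). In unoperated eyes its log2 fold change was -0.34 ± 0.11 (limma adjusted p = 0.0244), lost without 5-week replicate 1 or 7 or 6-month replicate 1 or 4 (highest limma adjusted p = 0.0598).

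AARS2, the mitochondrial alanyl enzyme, was lower at 6 months in both settings. It had 1.75, 2.11 and 2.33 FPKM in unoperated 6-month and 2.44, 2.87 and 3.23 FPKM in unoperated 5-week eyes (log2 fold change -0.39 ± 0.09, limma adjusted p = 0.00484), and it fell by 0.42 ± 0.10 in operated eyes (limma adjusted p = 0.00613). Neither pair of groups overlapped, and the unoperated call was lost without the high-CRYAA libraries and the operated one with operated 6.5-week eyes alone as juveniles. EIF1, EIF3H and EIF3K rose in unoperated eyes by 0.19 to 0.29 on the log2 scale under all 3 scalings, and these calls too were lost without those libraries. In operated eyes EEF1B2 and EIF5A were higher at 6 months by 0.28 ± 0.06 and 0.35 ± 0.08 (limma adjusted p = 0.00331 and 0.00412), and both calls were lost when the operated 6.5-week eyes alone stood for the juveniles. EEF1A1 was higher at 6 months by 0.16 ± 0.05 among unoperated and 0.16 ± 0.05 among operated eyes (limma adjusted p = 0.0218 and 0.0475). The unoperated call was lost under all 3 scalings, and the operated one when any of 22 libraries was left out (highest limma adjusted p = 0.0979).

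WARS and EIF2AK2, both known as interferon-induced genes, varied most between libraries of a group. The within-group SD of WARS, the cytosolic tryptophanyl-tRNA synthetase, was 0.99 on the log2 scale, and that of EIF2AK2 was 0.71, the 2 largest of the 90. WARS had 10.7, 42.4 and 115 FPKM (lowest, median, highest) in operated and 5.83, 37.5 and 47.6 FPKM in unoperated eyes at 6 months. In juveniles it had 49.7, 52 and 91.9 FPKM in operated 5-week eyes, 9.62, 32.6 and 36.7 FPKM in operated 6.5-week eyes, and 6.24, 34.8 and 40.9 FPKM in unoperated 5-week eyes. The operated 5-week libraries were all above the unoperated ones, and the operated 6.5-week libraries lay within the unoperated range. Its log2 fold changes of 0.36 ± 0.54 at 6 months and 0.53 ± 0.54 in juveniles did not pass (limma adjusted p = 0.608 and 0.463). Between operated 6.5-week and operated 5-week eyes the log2 difference was -1.43 ± 0.79 (limma adjusted p = 0.549).

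EIF2AK2 had 3.2, 7.79 and 12.4 FPKM in operated and 3.21, 5.89 and 9.46 FPKM in unoperated eyes at 6 months. In juveniles it had 9.40, 10.1 and 18.1 FPKM in operated 5-week eyes, 3.29, 6.94 and 12 FPKM in operated 6.5-week eyes, and 3.39, 6.38 and 27.3 FPKM in unoperated 5-week eyes, and all of these ranges overlapped.

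**Figure D4:**
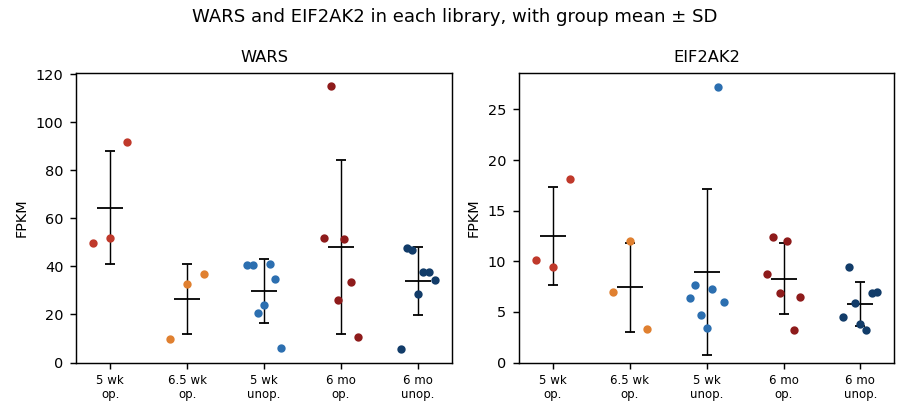
FPKM (y axis, from 0) of WARS and EIF2AK2 in each library, with the mean and SD of each group. Single libraries reach 115 FPKM for WARS in an operated 6-month eye and 27.3 FPKM for EIF2AK2 in an unoperated 5-week eye, and the spread within groups exceeds most differences between them.

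Genes around the translation machinery were counted from 5 further lists. Of 27 measured genes of the integrated stress response, the programme that ATF4 drives when eIF2 is phosphorylated, 9 rose and 7 fell at 6 months (33.3% and 25.9%, against 16% and 30.1% of all symbols), and 6 rose and 7 fell in juveniles (22.2% and 25.9%, against 16.5% and 20.8%). Among the rises CEBPB, a transcription factor of inflammation and stress, had the smallest adjusted p, at 24.7 FPKM in operated and 6.76 FPKM in unoperated eyes at 6 months (log2 fold change 1.80 ± 0.13, limma adjusted p = 6.31e-11), and with a log2 fold change of 1.81 ± 0.13 in juveniles (limma adjusted p = 7.12e-11). ATF3, a stress-induced transcription factor, had the largest rise of the list at 6 months, with means of 57.2 FPKM in operated and 9.01 FPKM in unoperated eyes at 6 months (log2 fold change 2.71 ± 0.38, limma adjusted p = 5.19e-06). PHGDH, the first enzyme of serine synthesis, had the largest fall, at 19.3 FPKM in operated and 56 FPKM in unoperated eyes (log2 fold change -1.56 ± 0.14, limma adjusted p = 5.15e-09). ASNS, the asparagine synthetase, fell at 6 months by 0.54 ± 0.12 (limma adjusted p = 5.59e-04), and SHMT2 and MTHFD2, which carry the mitochondrial folate cycle, rose by 0.72 ± 0.07 and 0.64 ± 0.11 (limma adjusted p = 4.09e-09 and 3.24e-05). In this list 2 genes passed the test of the difference between ages, PYCR1, a proline synthesis enzyme, with 1.13 ± 0.22 (limma adjusted p = 0.00899), and SHMT2, with 0.42 ± 0.09 (limma adjusted p = 0.0191).

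Of 16 measured genes listed for mTOR and MAPK control of translation, 0 rose and 6 fell at 6 months (0% and 37.5%, against 16% and 30.1% of all symbols). In juveniles 1 rose and 2 fell (6.25% and 12.5%, against 16.5% and 20.8%). MTOR, the kinase itself, had means of 8.91 FPKM in operated and 11.3 FPKM in unoperated eyes at 6 months (log2 fold change -0.34 ± 0.07, limma adjusted p = 5.39e-04), and TSC1, part of its inhibitor, fell by 0.34 ± 0.07 (limma adjusted p = 4.40e-04). In juveniles MTOR fell by 0.22 ± 0.07 and TSC1 by 0.23 ± 0.07, and MKNK1, a kinase of eIF4E, rose by 0.36 ± 0.08 (limma adjusted p = 0.0183, 0.0111 and 0.00102). Of 39 measured ribosome biogenesis genes 7 rose and 5 fell at each age (17.9% and 12.8%, against 16% and 30.1% of all symbols at 6 months and 16.5% and 20.8% in juveniles), so the share that rose lay near the background. UBTF, a factor of ribosomal RNA transcription, fell at both ages, by 0.39 ± 0.09 at 6 months and 0.33 ± 0.09 in juveniles (limma adjusted p = 0.00116 and 0.00554), and POLR1D, a subunit shared by RNA polymerases I and III, rose by 0.32 ± 0.08 and 0.35 ± 0.08 (limma adjusted p = 0.00275 and 0.0016), the 6-month POLR1D call passing in 2 of 3 scalings.

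Of 20 measured termination factors and other regulators, 3 rose and 5 fell at 6 months (15% and 25%, against 16% and 30.1% of all symbols), and 2 rose and 5 fell in juveniles (10% and 25%, against 16.5% and 20.8%). PAIP2B, an inhibitor of poly(A)-binding protein, had means of 12.6 FPKM in operated and 22.2 FPKM in unoperated eyes at 6 months (log2 fold change -0.81 ± 0.10, limma adjusted p = 8.10e-07), and fell by 0.73 ± 0.10 in juveniles (limma adjusted p = 4.24e-06). TPT1, a growth-related protein whose message is under mTOR control, had 508 FPKM in operated and 355 FPKM in unoperated eyes at 6 months (log2 fold change 0.51 ± 0.07, limma adjusted p = 1.92e-06), and rose by 0.61 ± 0.07 in juveniles (limma adjusted p = 1.91e-07). Of 12 measured mitochondrial translation factors and further synthetases, 0 rose and 2 fell at 6 months (QRSL1 and FARS2), and 0 rose and 1 fell in juveniles (GFM1). The shares that fell were 16.7% and 8.33%, against 30.1% and 20.8% of all symbols. QRSL1, which helps make mitochondrial glutaminyl-tRNA, fell by 0.34 ± 0.10, FARS2, the mitochondrial phenylalanyl enzyme, by 0.30 ± 0.10, and GFM1, a mitochondrial elongation factor, by 0.27 ± 0.08 (limma adjusted p = 0.0093, 0.014 and 0.0119), the FARS2 call passing in 2 of 3 scalings.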

How the data were processed

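The deposited table holds FPKM for 16725 RefSeq transcripts in 26 iris and ciliary body libraries, as the file header names them. The 49 labelled samples include 23 corneas, not analysed here. Tools listed in the submitters' processing notes are RSEM 1.2.12, Bowtie2 2.2.5 and HISAT2 2.0.4 (also HISAT), with no role stated. The sources used here do not name a build or annotation. The authors' table lists transcripts above 1 FPKM in all libraries of at least 1 group, so the choice of rows depends on the groups. Read depth is unknown and no counting interval is given; the summed FPKM was 412936 to 504202 per library.

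FPKM were summed per symbol (17 of the 90 genes had more than 1 transcript) and analysed as log2(FPKM + 0.5), after a filter asking for 1 FPKM in 3 libraries, which removed none. limma 3.58.1 in R 4.3.3 fitted group means to all 26 libraries at once, using its trend and robust options. Benjamini-Hochberg adjustment ran over 12948 symbols in each of 6 comparisons. Operated juveniles enter as the average of their 2 age groups. Log2 ratios of 5 paralog pairs are given with no test. The fits were tested on simulated data. The genes and lists were chosen with earlier results of these data known. Named are called genes with the 6 largest rises and 6 largest falls of a surgery comparison, the kinases, the cap-binding inhibitors, abundant genes, and further called genes by role. For age only some of the largest changes are described. Left out are called changes of EIF1B, EIF3E, EIF5A and PABPC4L in unoperated eyes, and of PABPC1, EIF2B2, EIF3I and LARS2 in operated eyes. WARS, and EIF4EBP1 and PABPC1 in the difference between ages, were picked after their values were seen. From each further list the called genes named were picked among the 4 with the smallest p in a comparison, or where 5 or fewer were called; UBTF, POLR1D, ASNS and MTHFD2 were picked after their values were seen. The alternatives changed the pseudocount, filter, scaling, moderation, fitted groups, gene names, transcripts, covariates and libraries; the joint omission of operated 6-month replicates 4 and 6 was chosen after seeing the data.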

Additional observations from a re-analysis of the deposited data

Results flagged for a closer look

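Of 144 combinations of gene and group that were examined for a library far from the others, 5 held one, and chance gives about 1 in 20. EIF2AK2 stood at 27.3 FPKM in unoperated 5-week replicate 6, against 3.39 to 7.68 FPKM in the other 6 libraries of that group. QARS stood at 66.3 FPKM in operated 6-month replicate 4, above the 53.5 to 56.1 FPKM of the others. EIF5A reached 163 FPKM in unoperated 6-month replicate 2, against 130.3 to 144 FPKM in the others, which lowers its difference from operated eyes. PABPC4L had 2.57 FPKM in unoperated 5-week replicate 2, below the 2.95 to 3.23 FPKM of the others. EIF2AK1 had 32.4 FPKM in unoperated 5-week replicate 3, against 36.4 to 38.1 FPKM in the others. No cause of these values was tested.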

How the results depend on the processing

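FPKM are relative within a library, so small changes depend on the scaling, and rows of low genes are missing by the choice of transcripts. For 91 single-gene results, 3526 values under an alternative kept their direction and side of the threshold, 370 kept the direction and lost the call, 2 gained it and 5 changed sign. The sign changes were EIF2B3 at 6 months with its most abundant transcript (0.0031), WARS at 6 months without unoperated replicate 1 (-0.0125) and in juveniles with operated 6.5-week eyes alone (-0.18), and EIF2AK2 in juveniles without the high-CRYAA libraries (-0.0252) and with operated 6.5-week eyes alone (-0.12), of which only EIF2B3 was called. Without 1 library the 6-month value of WARS ran from -0.0125 to 0.7153.

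Rises and falls at 6 months numbered 27 and 8 with median-ratio scaling and 9 and 44 with equal sums. In juveniles they were 6 and 24 with equal sums, 6 and 3 without the high-CRYAA libraries, and 10 and 4 with operated 5-week eyes alone. For age in unoperated eyes, equal sums gave 4 and 10 and omission of the high-CRYAA libraries 1 and 0; falls were 9 with upper-quartile scaling, 7 with the compared groups fitted alone, 2 with a mean of at least 5 FPKM and 2 without the late-numbered 5-week samples. For age in operated eyes, equal sums gave 3 and 11 and operated 6.5-week eyes alone 1 and 1; rises were 5 with upper-quartile scaling, 1 with the compared groups alone, 4 without the high-CRYAA libraries and 5 with operated 5-week eyes alone. Without operated 6-month replicates 4 and 6, juvenile falls numbered 14, falls for age in unoperated eyes 7 and rises for age in operated eyes 5. The juvenile and unoperated age comparisons hold neither library, so their fold changes stay the same under this omission. Their counts can still move because the fit shares its spread over all libraries. The cause of the other changes in count was not tested. Leaving out 1 library gave 16 to 18 rises and 10 to 18 falls at 6 months, 12 to 18 and 7 to 11 in juveniles, 7 to 10 and 2 to 4 for age in unoperated eyes, and 4 to 8 and 3 to 6 for age in operated eyes. The difference between ages and that between operated 6.5-week and 5-week eyes stayed at 0 calls under all alternatives run. Where no share of all symbols is given, a change in count cannot be told from a change over all symbols. No paired analysis was possible because the labels give the groups no shared replicate numbers.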
